A study of Homo sapiens with 6 samples.

Results

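The FOXO factors and their output genes were taken as 10 genes, 3 that encode FOXO proteins (FOXO1, FOXO3 and FOXO4) and 7 known FOXO targets (SESN3, FBXO32, CITED2, TXNIP, BCL6, PIK3IP1 and CCNG2), of 61279 genes quantified. They were listed by name, and the list uses no measured value as a criterion, although it was drawn up with earlier results of these data known. All 10 passed the filter on low counts that left 16442 genes for testing. RNA-seq was performed on cells labelled T47D, after 24 hours with 4 μmol/L MI-503 (MI503 in the labels) or with the solvent DMSO. T47D is an established line of breast cancer cells that carry hormone receptors and an activating PIK3CA mutation (the labels give the genotype as WT). MI-503 is a small molecule that keeps the methyltransferase MLL1 from binding its cofactor menin. There were 3 biological replicates with each label, sequenced to between 17404736 and 22168525 reads per library.

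The labelled cell type was first checked against marker genes. With the MI-503 label, ESR1, the estrogen receptor, averaged 248 ± 43.6 CPM (reads scaled to the TMM-adjusted library size) and PGR, the progesterone receptor, 1386 ± 132 CPM, against 0.0645 ± 0.112 and 0.328 ± 0.253 CPM with the DMSO label (SD, n = 3 each), where 2 of 3 libraries had no ESR1 read. KLK3, which encodes prostate-specific antigen, had no read in the libraries labelled MI-503 and was at 3708 ± 47.9 CPM in those labelled DMSO, and HOXB13 was at 0.0163 ± 0.0281 against 552 ± 90.02 CPM (SD, n = 3 each). Of 20 luminal breast markers, 18 were higher with the MI-503 label and the test was not passed by 2, with summed levels of 15548 to 21902 CPM against 1594 to 1927 CPM. All 15 prostate markers tested were lower with the MI-503 label, at summed levels of 236 to 253 CPM against 6552 to 8384 CPM. The libraries labelled DMSO thus held next to no transcripts of the hormone receptors that define the labelled cell type. MEN1, the menin gene, was 1.27 log2 units higher with the MI-503 label (adjusted p = 0.000265), and KMT2A, the MLL1 gene, did not pass the test (0.24 log2 units, adjusted p = 0.511). In every comparison below, an effect of MI-503 and a difference between the cells in the libraries of each label cannot be told apart, and libraries are called by their labels only.

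FOXO proteins are forkhead transcription factors that sit below the insulin and growth factor pathway. When PI3K is active, AKT and SGK kinases phosphorylate them, 14-3-3 proteins bind them and they stay in the cytoplasm, and when the pathway is quiet they enter the nucleus and bind DNA at a short forkhead element. There they switch on genes for cell cycle arrest, stress defence, autophagy and protein breakdown, and genes that feed back on PI3K signalling itself. RNA levels measure neither the phosphorylation nor the place of FOXO proteins in the cell.

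Promoters of the members were searched for the core forkhead element GTAAACA and its longer form GTAAACAA, in RefSeq windows from 250 bases before to 50 bases after each annotated start (GRCh38.p14, both strands). The carbohydrate response element for which the TXNIP promoter is known, a pair of CACGNG copies with 5 bases between them, was searched in the same way. Windows were found for 9 of the 10 members, all but FBXO32, and 3 members held a core element. The core was found in 3.42% of all 35116 windows, the longer form in 0.954% and the carbohydrate response element in 20 windows, 0.057%. Counted per gene, 4.19% of 27305 gene symbols held the core, and the 9 members had 1 to 4 windows each. The windows with a match are shown because they hold the forkhead element, which FOXO proteins can bind, with the matched bases in capitals. Binding to these windows was not measured. In TXNIP the longer form began 124 bases before the start site and the carbohydrate response element 88 bases before it. In PIK3IP1 the reverse complement of the core, TGTTTAC, began 16 bases past the start site, and in FOXO4 the core began 23 bases past it. Both of these lie in the first exon.
TXNIP promoter, chr1:145996580-145996829, minus strand: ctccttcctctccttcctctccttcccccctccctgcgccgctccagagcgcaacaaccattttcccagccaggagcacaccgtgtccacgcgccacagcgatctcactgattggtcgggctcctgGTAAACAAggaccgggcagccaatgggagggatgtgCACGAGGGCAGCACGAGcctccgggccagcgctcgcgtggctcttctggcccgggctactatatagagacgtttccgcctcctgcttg
PIK3IP1 start, chr22:31292454-31292483, minus strand: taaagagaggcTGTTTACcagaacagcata
FOXO4 start, chrX:71095863-71095892, plus strand: cccggcgagtgGTAAACAgagacgtcagga
A match describes the sequence only. Of the 3 genes that carry one, PIK3IP1 alone passed the test between the labels, as the values below show.

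With the MI-503 label 4 of the 10 members were higher and 3 were lower, whereas 3 differences missed the threshold (adjusted p under 0.05, edgeR's quasi-likelihood test). Over all genes tested, 31.7% were higher and 31.2% lower, 62.9% in either direction, so that 7 called members of 10 lie near the share of all genes. That count depended on DMSO replicate 3. Without it all 10 members were called, 4 higher and 6 lower. Over all genes, 5375 were then higher and 5229 lower, against 5208 and 5130 with all 6 libraries. Their share of the genes tested without that library is not given here. Leaving out any other library gave 3 or 4 higher members and 3 lower ones. The remaining alternatives gave 4 higher members and 3 or 4 lower ones. With all 6 libraries, the higher members were all output genes (FBXO32, CITED2, BCL6 and PIK3IP1). The lower ones were 2 FOXO genes (FOXO3 and FOXO1) and 1 output gene (SESN3). The groups did not overlap for these 4 and 3 genes, against 34.7% of all genes with every MI-503 library higher and 34% with every MI-503 library lower, 68.7% in all. Differences beyond 2 on the log2 scale were found for FBXO32, CITED2 and SESN3, where 12.6% of all genes were as far higher and 11.7% as far lower. CITED2 lay at this limit, and its log2 fold change was under 2 in 7 of 14 alternatives. The median log2 fold change was −0.94 over the 3 FOXO genes and 1.196 over the 7 output genes, also with SESN3 taken at its bound, and −0.0036 over all genes with a symbol.

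**Figure D1:**
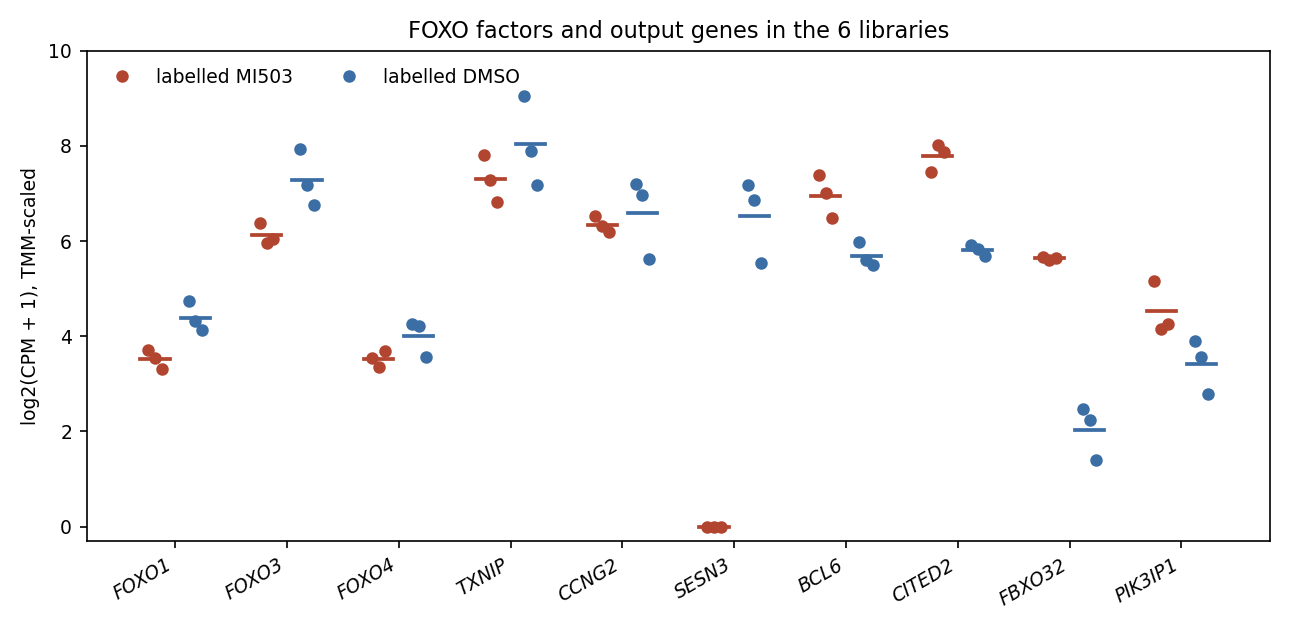
Levels of the 10 members in each library as log2(CPM + 1) on the vertical axis, with a point per library and a bar at the mean of the 3 libraries of a label, MI503 in red left of DMSO in blue. The groups are apart for FOXO1, FOXO3, SESN3, BCL6, CITED2, FBXO32 and PIK3IP1 and overlap for FOXO4, TXNIP and CCNG2, and SESN3 lies at 0 in all 3 libraries labelled MI503.

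Levels between genes were compared per length, in the length-corrected unit TPM. With the MI-503 label the order was CITED2 at 133 ± 25.6 TPM, TXNIP at 82.6 ± 27.6, BCL6 at 68.5 ± 22.4, FBXO32 at 46.5 ± 4.13, CCNG2 at 44.5 ± 3.67, PIK3IP1 at 12.95 ± 5.53, FOXO3 at 12.0 ± 1.65, FOXO4 at 4.61 ± 0.638, FOXO1 at 2.37 ± 0.316 and SESN3 at 0 TPM (SD, n = 3). TXNIP and BCL6 were within 1 SD of each other, as were FBXO32 and CCNG2, and PIK3IP1 and FOXO3. With the DMSO label TXNIP came first at 165 ± 116 TPM, followed by CCNG2 at 67.8 ± 37.0, CITED2 at 35.4 ± 4.64, FOXO3 at 31.0 ± 15.1, BCL6 at 28.5 ± 5.14 and SESN3 at 15.8 ± 8.35 TPM, and FBXO32 was last at 3.13 ± 0.953 TPM (SD, n = 3). TXNIP was first and FBXO32 last in each of these libraries, but the order between them changed. FOXO3 at 48.0 TPM was above CITED2 at 39.7 in DMSO replicate 1, and CITED2 at 30.5 was above CCNG2 at 29.4 in DMSO replicate 3. In TPM summed over all its transcripts, FBXO32 thus stood above most members with the MI-503 label and below all others with the DMSO label. TXNIP was among the first pair with both. The rank of FBXO32 depends on short transcripts, whose reads count for more in TPM. Its longest transcript, of 6744 bases, took 44.7% to 50.6% of its reads with the MI-503 label. The other reads were on transcripts of 735 to 1227 bases. A rank by the longest transcript alone was not computed.

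FOXO3, the most abundant of the FOXO genes here (chromosome 6, 108559835 to 108684774, plus strand, GENCODE 44 on GRCh38), was at 81.9, 61.6 and 65.3 CPM in the libraries labelled MI-503, against 245, 143 and 107 CPM in those labelled DMSO. Every library labelled MI-503 lay below every library labelled DMSO, and the spread was wider with the DMSO label. The log2 fold change was −1.24 (SE 0.28, adjusted p = 0.00306). FOXO3B, a near-identical copy on another chromosome, took 174.4 to 216.6 estimated reads per library labelled MI-503 and 328.6 to 557.8 with the DMSO label, and with its reads added to FOXO3 the log2 fold change was −1.199 (adjusted p = 0.00302).

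FOXO1, which drives gluconeogenic genes in the liver and is inhibited by insulin (chromosome 13, 40555667 to 40666641, minus strand), was at 12.0, 10.7 and 8.97 CPM with the MI-503 label, against 25.6, 19.1 and 16.4 CPM with the DMSO label. The groups did not overlap, and the log2 fold change was −0.94 (SE 0.23, adjusted p = 0.00506). These levels rest on 151 to 247 reads per library labelled MI-503 and 360 to 565 with the DMSO label, all but a few of them on a single transcript.

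FOXO4, encoded on the X chromosome (71095851 to 71103532, plus strand), was at 10.6, 9.15 and 11.9 CPM with the MI-503 label, against 18.05, 17.6 and 10.8 CPM with the DMSO label. DMSO replicate 3 fell among the libraries labelled MI-503, and the difference did not pass the test (log2 fold change −0.55, 95% interval −1.11 to 0.0071, adjusted p = 0.0783). Without that library it did (−0.75, adjusted p = 0.0109).

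FOXO6, the remaining gene of the family and no member of the set, was at 16.2, 13.5 and 12.1 CPM with the MI-503 label, against 10.2, 10.2 and 9.16 CPM with the DMSO label (log2 fold change 0.51, SE 0.21, adjusted p = 0.0591). Its groups did not overlap, yet the difference did not pass the test. At least 80.9% of its reads in each library were on FOXO6-201, a transcript for which the annotation defines no coding sequence, so these reads may not stand for FOXO6 protein.

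The FOXO genes together gave 29.1, 26.8 and 23.5 TPM with the MI-503 label, against 72.5, 43.2 and 32.4 TPM with the DMSO label, with FOXO6 included. The groups did not overlap, and the exact two-sided permutation p was 0.1, the smallest that 3 libraries against 3 can give. FOXO3 made up 45.4 ± 4.45% of this sum with the MI-503 label and 61.7 ± 3.98% with the DMSO label, whereas FOXO6 made up 28.1 ± 2.65% and 11.5 ± 3.34% (SD, n = 3 each, exact permutation p = 0.1 for both). FOXO1 made up 8.96 ± 0.260% against 11.2 ± 0.688% (exact permutation p = 0.1) and FOXO4 17.5 ± 2.53% against 15.5 ± 0.574% (exact permutation p = 0.4; SD, n = 3 each). These shares depended on FOXO6. Summed over FOXO1, FOXO3 and FOXO4 alone, the share of FOXO3 was 63.1 ± 4.39% against 69.8 ± 1.93% (SD, n = 3 each), still without overlap between the groups. The share of FOXO1 was then close between the labels, at 12.5 ± 0.768% against 12.7 ± 1.23% (exact permutation p = 0.7). That of FOXO4 was 24.4 ± 4.06% against 17.5 ± 0.829%, now without overlap (exact permutation p = 0.1; SD, n = 3 each).

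**Figure D2:**
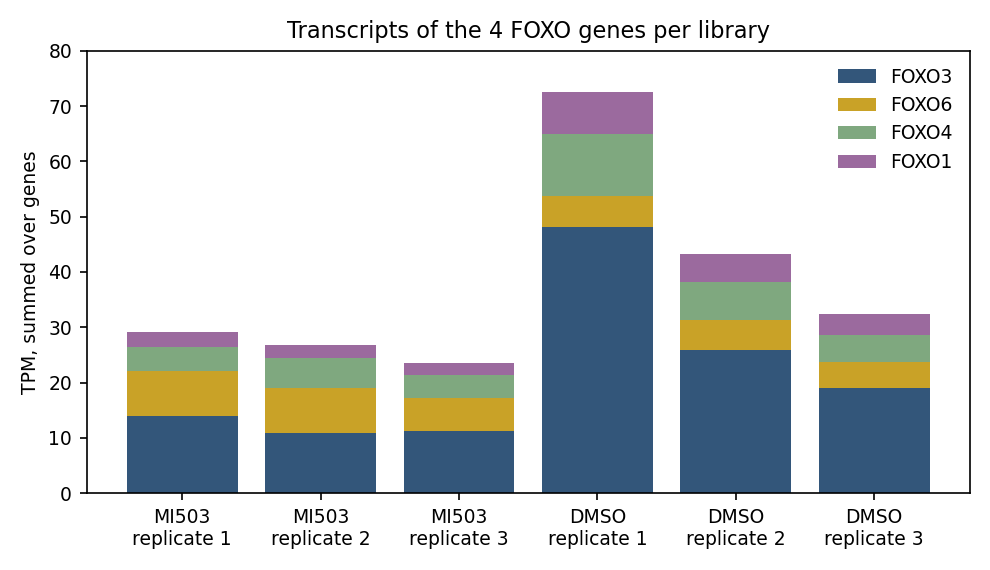
TPM of the 4 FOXO genes stacked for each library, MI503 replicates left of DMSO replicates, with FOXO3 at the base. The stacks reach 23.5 to 29.1 TPM with the MI503 label and 32.4 to 72.5 TPM with the DMSO label, and most of the difference lies in FOXO3.

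Among the output genes, SESN3 differed most. SESN3 encodes sestrin 3, a stress protein that restrains mTORC1 (chromosome 11, 95165513 to 95232541, minus strand). It had no read in any library labelled MI-503, against 145, 115 and 45.4 CPM (3200, 2374 and 995 reads) in the libraries labelled DMSO. Against a floor of 3 reads over the pooled libraries labelled MI-503, 0.0531 CPM, the gene was at least 1910.9-fold lower than the 101.5 CPM of the pooled libraries labelled DMSO (adjusted p = 6.71e-06). Between 99.8% and 99.9% of the reads with the DMSO label came from its MANE Select transcript, and the other transcripts of the gene took almost none. The other sestrin genes moved in opposite directions. SESN1 was lower with the MI-503 label, at 9.75 ± 0.343 against 36.4 ± 12.0 CPM (SD, n = 3 each; log2 fold change −1.90, adjusted p = 0.000127). SESN2 was higher, at 99.5 ± 55.2 against 49.4 ± 19.9 CPM (SD, n = 3 each; log2 fold change 1.01, adjusted p = 0.0498), close to the threshold and with overlapping groups.

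FBXO32 encodes atrogin-1, the muscle atrophy ubiquitin ligase that FOXO proteins induce in wasting muscle, and lies on chromosome 8. It was at 49.8, 47.4 and 49.0 CPM with the MI-503 label, against 4.57, 3.73 and 1.64 CPM with the DMSO label. The highest library labelled MI-503 was at 1.05 times the lowest, and the log2 fold change was 3.88 (SE 0.33, adjusted p = 5.65e-06). The level with the DMSO label rests on 36 to 101 reads per library. Transcripts with a retained intron took 42.6%, 33.5% and 36.4% of its reads with the MI-503 label, against 38.5%, 54.6% and 39.0% with the DMSO label, and these shares overlapped.

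CITED2, a partner of the acetyltransferases CBP and p300 that limits hypoxia-induced transcription (chromosome 6, 139371807 to 139374648, minus strand), was at 175, 258 and 235 CPM with the MI-503 label, against 59.6, 56.2 and 50.1 CPM with the DMSO label. The lowest library labelled MI-503 was well above the highest labelled DMSO, and the log2 fold change was 2.01 (SE 0.18, adjusted p = 9.23e-06). CITED2 was the member with the smallest spread among the libraries labelled DMSO, with a coefficient of variation of 8.64%.

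BCL6, a transcriptional repressor best known from germinal centre B cells (chromosome 3, 187721377 to 187745725, minus strand), was at 166, 127 and 88.7 CPM with the MI-503 label, against 62.5, 47.5 and 44.2 CPM with the DMSO label. The groups did not overlap, and the log2 fold change was 1.31 (SE 0.24, adjusted p = 0.000875). The blood cell markers were close to absent with both labels, at summed levels of 2.19 to 3.21 CPM and 0 to 0.228 CPM.

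PIK3IP1 encodes a membrane protein that binds and inhibits PI3K (chromosome 22, 31281594 to 31292534, minus strand). Its levels were 35.0, 16.9 and 18.1 CPM with the MI-503 label, against 13.9, 10.8 and 5.88 CPM with the DMSO label. MI-503 replicate 1 stood apart from the other two of its label, which lay just above the highest library labelled DMSO. The log2 fold change was 1.196 (SE 0.36, adjusted p = 0.0159), and without MI-503 replicate 1 it was 0.84 and no longer passed the test (adjusted p = 0.0512).

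TXNIP, which binds thioredoxin and limits glucose uptake (chromosome 1, 145992435 to 145996579, minus strand), was at 224, 155 and 113 CPM with the MI-503 label, against 527, 236 and 145 CPM with the DMSO label. The highest library labelled MI-503 was above the lowest labelled DMSO, and the difference did not pass the test (log2 fold change −0.88, 95% interval −1.82 to 0.058, adjusted p = 0.0925). The value depended on which library labelled DMSO was left out. Without DMSO replicate 1 it was −0.21 (adjusted p = 0.559), and without DMSO replicate 3 it was −1.22 (adjusted p = 0.0130).

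CCNG2 encodes cyclin G2, an unusual cyclin that accumulates in arrested cells (chromosome 4, 77157207 to 77433388, plus strand). It was at 91.2, 78.6 and 71.9 CPM with the MI-503 label, against 145, 125 and 48.2 CPM with the DMSO label. DMSO replicates 1 and 2 were above all libraries labelled MI-503 and DMSO replicate 3 was below them, so that the difference did not pass the test (log2 fold change −0.40, 95% interval −1.14 to 0.35, adjusted p = 0.323). Without DMSO replicate 3 it did (−0.74, adjusted p = 0.00361), and without DMSO replicate 1 it was −0.10 (adjusted p = 0.809).

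**Figure D3:**
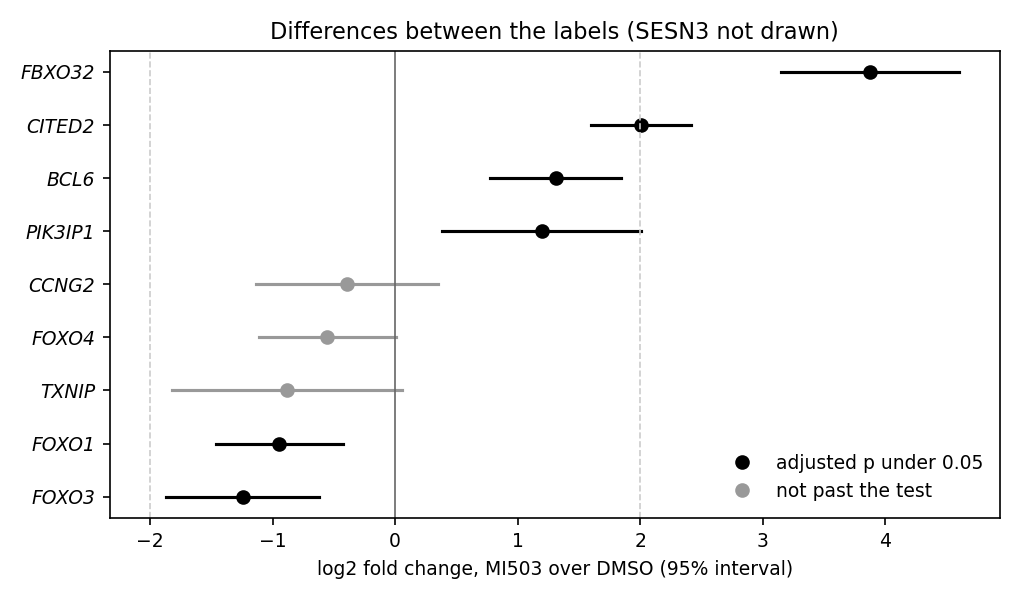
Log2 fold changes, MI503 over DMSO, on the horizontal axis for the 9 members with reads under both labels, with 95% intervals as lines, black for an adjusted p under 0.05 and grey otherwise. FBXO32, CITED2, BCL6 and PIK3IP1 lie right of 0, FOXO1 and FOXO3 lie left of it, and the grey intervals of CCNG2, FOXO4 and TXNIP reach across 0. Dashed lines mark 2 in either direction.

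The share of reads on single transcripts was close between the labels for most members. TXNIP-204 took 96.3% to 97.8% of TXNIP reads with the MI-503 label and 95.4% to 97.8% with the DMSO label. BCL6-202 took 75.3% to 83.2% of BCL6 reads against 78.1% to 87.1%, which overlapped. FOXO3 was read from a pair of transcripts with different first exons. FOXO3-201 took 64.6%, 76.2% and 76.5% of its reads with the MI-503 label, against 69.0%, 56.1% and 40.5% with the DMSO label, also with overlap. Shares without overlap were found for 4 transcripts. No background share over all transcripts was computed for this count. Full separation of 3 libraries from 3 is no stronger than an exact permutation p of 0.1. CCNG2-205, a shorter coding transcript, took 5.44%, 4.77% and 6.67% of CCNG2 reads against 11.5%, 8.46% and 11.8%. FBXO32-202, also coding, took 10.7%, 21.8% and 13.04% of FBXO32 reads against 0%, 0% and 7.69%, and PIK3IP1-205, with a retained intron, took 4.50%, 3.55% and 11.8% of PIK3IP1 reads against 2.49%, 0% and 0%. BCL6-211 took at most 2.98% of BCL6 reads with the MI-503 label and none with the DMSO label, and these last 3 transcripts had few reads with the DMSO label. These shares are estimates, since salmon divides reads between transcripts that share exons, and no test was run on them.

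The members also varied together among the libraries labelled DMSO. All 10 were highest in DMSO replicate 1 and lowest in DMSO replicate 3, an order shown by 4332 of 14029 tested genes (30.9%) that averaged 1 CPM or more and had reads in each of these libraries. On the log2 scale, DMSO replicate 1 exceeded DMSO replicate 3 by 1.87 for TXNIP, 1.67 for SESN3, 1.59 for CCNG2, 1.48 for FBXO32, 1.24 for PIK3IP1 and 1.19 for FOXO3. For FOXO4, FOXO1, BCL6 and CITED2 the ratios were smaller, at 0.73, 0.64, 0.50 and 0.25. The median over the members was 1.22, against 0.069 over the 14029 genes. The median coefficient of variation with the MI-503 label was 15.5% for the members and 14.6% for all genes, and with the DMSO label it was 41.4% for the members and 17.6% for all genes. These values are a description, as the order was noticed in the data and members read by the same libraries are not independent.

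In other genes of the pathway the order held for 22 of 37 further FOXO targets (59.5%) and 21 of 46 FOXO regulators (45.7%) that met the same conditions. With the MI-503 label, replicate 1 was the highest for 7 of the 9 members with reads, against 39.4% of 14084 genes, and CITED2 and FOXO4 were the exceptions. Transcript length moved with this order across all genes. The median log2 ratio of DMSO replicate 1 to DMSO replicate 3 was −0.17 for genes with a main transcript of up to 2 kb and 0.43 for those over 8 kb. Against genes of their own length class, 7 of 10 members were above the 90th percentile, TXNIP at 1.87 where that percentile was 0.73 and SESN3 at 1.67 where it was 1.15. Mitochondrial genes took 3.78% of reads in DMSO replicate 1, 1.38% in replicate 2 and 7.18% in replicate 3. The part of these measures in the order was not tested.

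**Figure D4:**
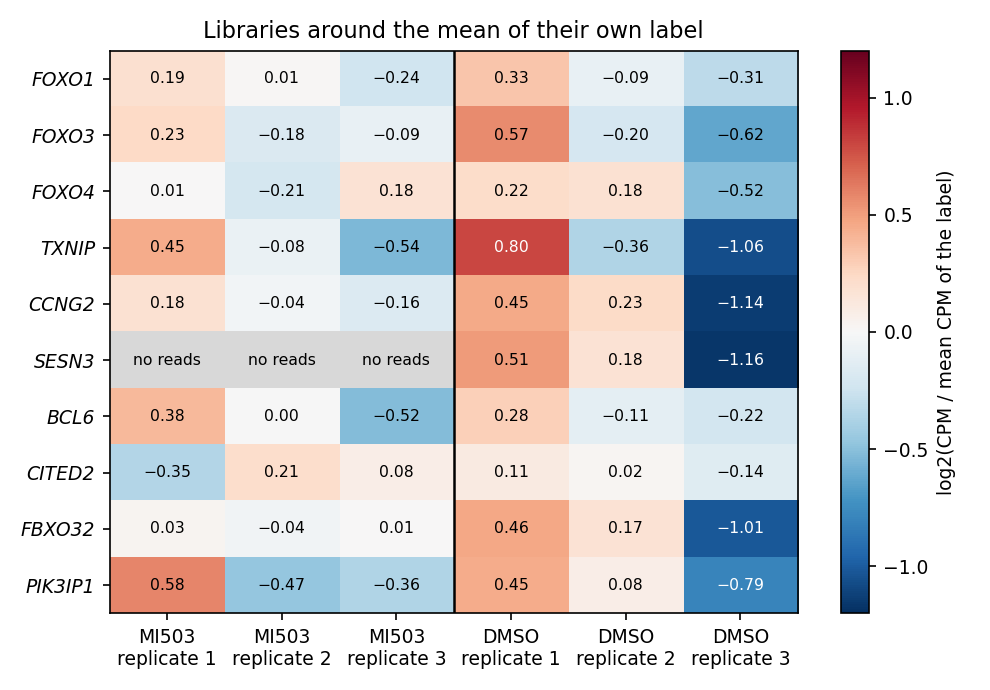
Log2 of each library's CPM over the mean CPM of its own label, for the 10 members (rows) in the MI503 libraries (left) and the DMSO libraries (right), red above the mean and blue below it. In the DMSO columns all 10 rows are highest in replicate 1 and lowest in replicate 3, from 0.80 to −1.06 for TXNIP and from 0.11 to −0.14 for CITED2.

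The genes that regulate FOXO proteins were taken from 47 genes in 4 lists, of which 46 were tested. With the MI-503 label 16 were higher and 15 lower, 15 missed the threshold, and the median log2 fold change was 0.19. All regulator and target lists below have a share of called genes that can be read against the 62.9% of all genes.

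Among the kinases, 10 of 19 were higher and 5 lower, and 4 missed the threshold. AKT1 and AKT2, which phosphorylate FOXO proteins, did not pass the test, with log2 fold changes of 0.13 (95% interval −0.24 to 0.49, adjusted p = 0.521) and 0.36 (95% interval −0.062 to 0.77, adjusted p = 0.122). The SGK kinases, which phosphorylate FOXO3 at the same kind of site, moved in different directions. SGK3 was at 54.0 ± 9.14 against 21.4 ± 1.82 CPM (SD, n = 3 each), a rise of 1.34 on the log2 scale (adjusted p = 0.000130). SGK1 and SGK2 were lower, and both were low genes, at 0.448 ± 0.143 against 1.35 ± 0.843 CPM and at 0.303 ± 0.287 against 2.496 ± 1.21 CPM (adjusted p = 0.0300 and 0.00270; SD, n = 3 each). PIK3CA, the p110α catalytic subunit of PI3K, was at 101 ± 12.7 against 14.8 ± 5.20 CPM (SD, n = 3 each; log2 fold change 2.77, adjusted p = 1.30e-05). PRKAA1, a catalytic subunit of the energy sensor AMPK that also phosphorylates FOXO3, was lower (log2 fold change −1.04, adjusted p = 0.000318).

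Phosphatases that oppose the pathway were divided, with 2 of 7 higher and 3 lower. INPP4B, a lipid phosphatase of the PI3K pathway, was higher by 1.09 log2 units (adjusted p = 0.00108), and PPP2R2A, a regulatory subunit of the phosphatase PP2A, was lower (log2 fold change −0.88, adjusted p = 0.00116).

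Of 12 genes for binding, nuclear export and turnover of FOXO proteins, 3 were higher and 3 lower, and 6 missed the threshold. SFN, the epithelial 14-3-3 protein, was at 110 ± 21.9 CPM with the MI-503 label and 1.30 ± 1.01 CPM with the DMSO label (SD, n = 3 each; log2 fold change 6.39, adjusted p = 2.65e-06). Of the other 14-3-3 genes, YWHAZ was higher (0.69, adjusted p = 0.00299) and YWHAQ was lower (−0.81, adjusted p = 0.00227). Among 8 enzymes that acetylate, deacetylate or methylate FOXO proteins, 1 was higher and 4 were lower. SIRT1, a deacetylase of FOXO proteins, was the higher one (0.69, adjusted p = 0.00805). PRMT1, which methylates FOXO1 near its AKT site, was at 81.0 ± 6.001 against 235 ± 18.9 CPM (SD, n = 3 each; log2 fold change −1.54, adjusted p = 1.28e-05), and SETD7, a lysine methyltransferase, was lower as well (−0.82, adjusted p = 0.00252).

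**Figure D5:**
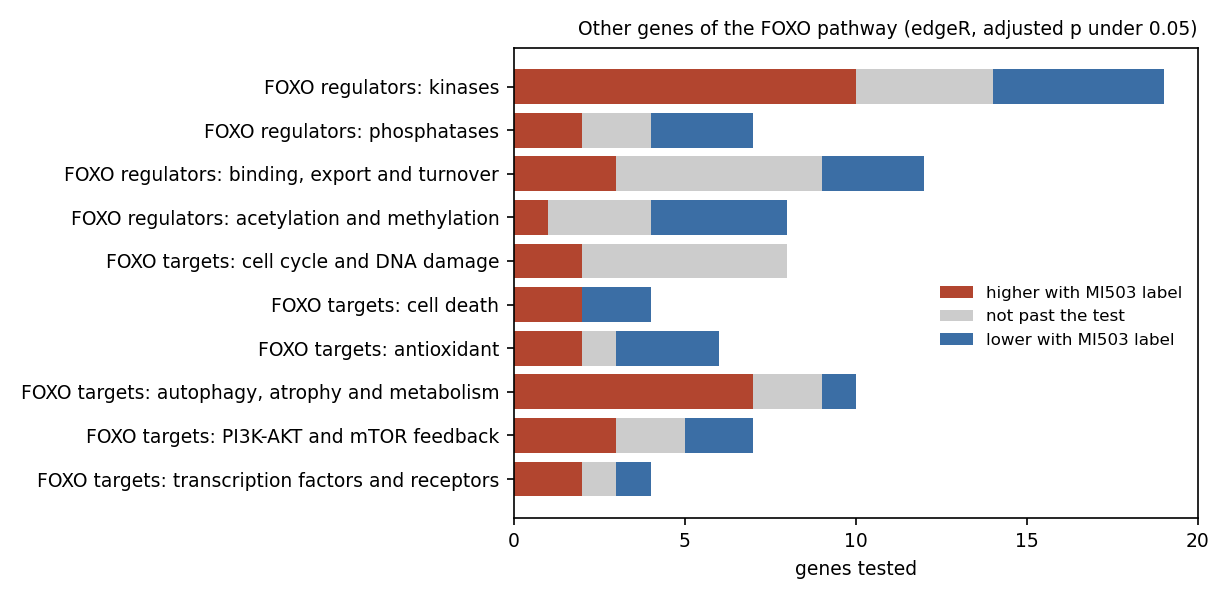
Number of genes tested in each list of FOXO regulators and further FOXO targets, divided into those higher with the MI503 label (red), not past the test (grey) and lower with the MI503 label (blue). Kinases (10 of 19) and the autophagy, atrophy and metabolism list (7 of 10) have the most higher genes, and in the cell cycle list 6 of 8 genes did not pass the test.

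Further FOXO targets, 44 genes in 6 lists with 39 tested, were higher in 18 cases and lower in 9, and 12 missed the threshold. Their median log2 fold change was 0.47, and that of the 7 output genes among the members was 1.196. The difference between these medians was not tested.

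Cell cycle and DNA damage targets had 2 higher genes of 8, and the other 6 missed the threshold. CDKN1B, the CDK inhibitor p27 through which FOXO proteins arrest cells, was at 105, 60.9 and 53.4 CPM with the MI-503 label, against 115, 116 and 79.5 CPM with the DMSO label. Its groups overlapped, and the difference did not pass the test (log2 fold change −0.50, 95% interval −1.09 to 0.085, adjusted p = 0.121). The called genes were the growth arrest gene GADD45B (1.71, adjusted p = 0.000573) and HBP1, a repressor of cell cycle genes (0.90, adjusted p = 0.0245). Of 8 proliferation markers 4 were higher and the others, MKI67 among them, missed the threshold, with summed levels of 1778 to 2195 CPM against 945 to 1190 CPM. TOP2A alone was at 742 ± 128 against 195 ± 18.9 CPM (SD, n = 3 each), and the part of these markers in the targets was not tested.

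All 4 cell death targets tested were called, with 2 in each direction. BCL2L11, the proapoptotic protein BIM, was at 17.99, 18.7 and 12.1 CPM with the MI-503 label, against 44.7, 22.3 and 27.9 CPM with the DMSO label (log2 fold change −0.96, SE 0.28, adjusted p = 0.0132). PMAIP1, which encodes the proapoptotic protein NOXA, was lower as well (−1.96, adjusted p = 0.000688), and TNFSF10, the death ligand TRAIL, was higher at 22.3 ± 5.41 against 1.36 ± 1.17 CPM (SD, n = 3 each; 4.04, adjusted p = 0.000113). Antioxidant targets had 2 higher and 3 lower genes of 6. The selenium carrier SELENOP was higher (1.66, adjusted p = 9.92e-06), and the mitochondrial peroxiredoxin PRDX3 was lower (−1.38, adjusted p = 6.10e-05).

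Targets for autophagy, atrophy and metabolism, the list closest to FBXO32 in function, had 7 of 10 genes higher and 1 lower. GLUL, glutamine synthetase, was at 433 ± 44.4 CPM with the MI-503 label and 182 ± 8.68 CPM with the DMSO label (SD, n = 3 each; 1.25, adjusted p = 5.72e-05). PDK4, which turns off pyruvate oxidation, was at 4.29, 5.23 and 3.27 CPM with the MI-503 label, against no read in DMSO replicates 1 and 2 and 0.0912 CPM in replicate 3 (adjusted p = 3.09e-05). BNIP3, a mitophagy receptor that hypoxia also induces, was the lower gene, at 51.8 ± 6.67 against 379 ± 69.4 CPM (SD, n = 3 each; −2.87, adjusted p = 1.23e-06).

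Targets that feed back on PI3K, AKT and mTOR signalling had 3 higher and 2 lower genes of 7. Receptor genes that FOXO proteins are known to induce when AKT is inhibited moved in opposite directions. ERBB3 was at 849 ± 220.1 CPM with the MI-503 label and 210.1 ± 59.3 CPM with the DMSO label (log2 fold change 2.01, adjusted p = 9.37e-05), whereas INSR, the insulin receptor, was at 16.7 ± 1.83 against 49.0 ± 13.3 CPM (−1.55, adjusted p = 0.000202; SD, n = 3 each). IRS2, the adaptor of that receptor, was at 38.5, 18.1 and 17.2 CPM with the MI-503 label, against 60.7, 35.1 and 26.3 CPM with the DMSO label, and did not pass the test (−0.73, 95% interval −1.55 to 0.10, adjusted p = 0.113). TSC1, which holds mTORC1 in check, was higher (1.19, adjusted p = 0.000703). Of the transcription factor and receptor targets, 2 of 4 were higher and 1 was lower. KLF6, a zinc finger transcription factor, was at 88.5 ± 14.0 against 12.9 ± 0.694 CPM (SD, n = 3 each; 2.77, adjusted p = 8.92e-07), the chemokine receptor CXCR4 was low throughout at 1.08 ± 0.300 against 0.0151 ± 0.0261 CPM (SD, n = 3 each; adjusted p = 0.000192), and KLF15 was lower (−1.35, adjusted p = 0.000908). The luminal and prostate marker sums given above differed between the same libraries, in opposite directions, and their part in these lists was not tested.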

How the data were processed

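RNA was sequenced from 3 libraries with each label, and libraries were grouped by label alone. The authors quantified transcripts with salmon as run in Illumina DRAGEN and deposited estimated counts per transcript, without normalization, and TPM, which salmon derives from those counts and the effective lengths within a library. The processing notes name the builds GRCh38.p13 and hg38, and neither the salmon version nor the annotation release is given in the sources used here. Matching of transcripts to genes used GENCODE release 44 (98.8% of 232117 transcripts, 99.2% to 99.3% of reads in each library), and estimated counts were summed per gene and rounded. Genes kept by filterByExpr were compared with edgeR 4.0.16 in R 4.3.3 (TMM scaling, quasi-likelihood test, Benjamini-Hochberg adjusted p-values over 16442 genes). The code was tested on simulated data in which far fewer genes differed than in these libraries, so that check does not cover differences this widespread. No covariate was used. The study itself made its calls with DESeq2, which served as an alternative here (version 1.42.0), as did limma-voom (3.58.1), other scalings and filters, a transcript length offset, a replicate block and leaving out each library.

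CPM are TMM-scaled, and errors are SDs unless given as SE. SEs and 95% intervals were worked back from the fold change and the F statistic of the quasi-likelihood test. They therefore largely restate its p-value. For a gene without reads in a group, 3 reads over the group served as the floor, and floors cover counting error only. TPM were used to compare levels between genes and for the sum and shares of the FOXO genes, which were set side by side between the labels. Overlapping genes on the members' exons were all at or under 0.489 CPM on average. Genes named are the 10 members, FOXO6, a fixed set of AKT, SGK and output genes, up to 3 genes per list with the smallest adjusted p, and checks of identity and of the drug target. Some genes that this choice takes are not reported here. The members, lists and measures were chosen with earlier results of these data known. A comparison of FOXO protein sequences was not run.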

Additional observations from a re-analysis of the deposited data

How the results depend on the processing

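Of 156 log2 fold changes of members and FOXO6 recomputed under alternatives, 146 kept their direction and their side of the threshold and 0 were reversed. Of 112 recomputed counts of genes, 110 were within 1.5 times the reported count. The count of lower members was 3 and became 6 without DMSO replicate 3, with a range of 3 to 6 when each library was left out in turn, and that of higher members ranged from 3 to 4. The difference in the share of FOXO3 among FOXO transcripts was −16.3 percentage points, −11.0 with reads in place of TPM, −6.67 without FOXO6, and −17.8 to −13.8 when each library was left out. Left-out libraries gave 13 to 18 higher and 10 to 15 lower regulators, and 15 to 20 higher and 7 to 13 lower further targets. FOXO4 passed the test with upper-quartile scaling (−0.65, adjusted p = 0.0414), TXNIP with no filter on low counts (−0.83, adjusted p = 0.00118), and FOXO6 with DESeq2 (0.50, adjusted p = 0.0436), with a length offset (0.61, adjusted p = 0.0481) and without MI-503 replicate 3 (0.62, adjusted p = 0.0463). The causes were not tested. Upper-quartile scaling moved the median of all genes by −0.10 log2 units and turned no member's direction.

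Over all genes tested, replicate numbers did not pair the libraries. Deviations of same-numbered libraries from their group means correlated at −0.098, 0.071 and −0.089. The highest correlation, 0.168, was between MI-503 replicate 1 and DMSO replicate 3. Of the libraries labelled MI-503, only replicate 2 correlated best with its own number, at 0.0706 against 0.0693 with DMSO replicate 1. Among the members, replicate 1 was often the highest with both labels. The block lowered the SE of TXNIP from 0.42 to 0.19 and raised that of FOXO4 from 0.25 to 0.28. With the replicate number as a block, 4 members were higher and 4 lower, TXNIP passing the test (−0.73, adjusted p = 0.0132), 16 regulators were higher and 12 lower, and 19 further targets were higher and 14 lower (9 without the block). Depth limits FBXO32 with the DMSO label, SGK1, SGK2, PDK4 and CXCR4, whose libraries hold few reads.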
